A study of Mus musculus with 32 samples.

Results

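The mitosis and spindle genes are 38 genes whose products drive a cell through mitosis, and they were taken by symbol from the 31053 genes of the count matrices, in which all 38 were present. They include *Tpx2*, a factor that nucleates spindle microtubules and for which the study built a gene network in mesenchymal progenitors, and 10 other genes of that network. The cells were BMSC-OBs, bone marrow-derived stromal cells (BMSCs) of Diversity Outbred (DO) mice that were cultured under osteogenic conditions and released from the mineralizing cultures for single-cell RNA-seq (scRNA-seq). DO mice are outbred descendants of inbred founder strains, so that each mouse carries its own genotype. Cells of 4 or 5 mice were combined into a pool, and 16 pools from 77 mice were each sequenced in 2 runs, giving 32 samples. All cultures had the same osteogenic treatment and the labels name no engineered allele, so the comparisons are between kinds of cells within a pool and between pools. Cells could not be traced to a mouse here, the pool is therefore the replicate, and the mice of a pool are averaged.

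In the run used here, a pool had 3460 to 9429 barcodes and 53990642 to 100777353 UMIs (unique molecular identifiers, each marking a captured transcript). Of 107853 barcodes, 88909 passed the limits on detected genes, mitochondrial and ribosomal UMIs, 5003 of these (5.63%) were called doublets and removed, and 83906 cells remained. Both runs of a pool shared 84.5 to 99.8% of the barcodes and so stand for the same droplets read again, while at most 0.434% of barcodes were shared between pools. Progenitor cells of pools 1 and 13 were shallow, with medians of 2742 and 2896 UMIs against 15753 over all progenitor cells.

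Cells were sorted in silico into gates by marker genes that contain no member. A cell entered the gate whose marker score led the next by at least 0.2 and was at least 0, a rule set after the scores had been seen. The progenitor gate (mesenchymal progenitor markers such as *Timp3* and *Aspn*) held 15921 cells, the osteogenic gate (osteoblast and osteocyte-like markers such as *Bglap* and *Phex*) 27441 cells, the MALP-like gate (marrow adipogenic lineage progenitor markers such as *Adipoq* and *Lpl*) 10760 cells and the leukocyte gate (such as *Ptprc*, which encodes CD45) 19266 cells. Another 10518 cells entered none. Some of the defining markers followed the gates closely. *Timp3* was detected in 90.1% of progenitor cells and in 53.0% of MALP-like, 37.98% of osteogenic and 16.6% of leukocyte cells. *Phex* was detected in 62.3% of osteogenic cells and 8.46% of progenitor cells. *Adipoq* was in 75.8% of MALP-like cells against 4.94 to 10.2% elsewhere, and *Ptprc* in 55.8% of leukocyte cells against 2.15 to 2.46% elsewhere. Other markers separated the gates less. The osteogenic markers *Alpl* and *Sp7* were in 96.7% and 68.6% of osteogenic cells, but also in 87.7% and 63.5% of progenitor cells. *Ibsp*, an abundant bone matrix transcript, was detected in 96.8 to 100% of the cells of every gate, so a single UMI does not by itself mark a transcript of the cell. The median cell had 15753 UMIs in the progenitor gate, 16008 in the osteogenic gate, 7908.5 in the MALP-like gate and 4150 in the leukocyte gate.

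When a cell enters mitosis, cyclin-dependent kinase 1 bound to cyclin B starts chromosome condensation and spindle assembly, kinesin motors and microtubule-bundling proteins shape the spindle, and kinetochore proteins hold the chromosomes until the checkpoint is satisfied. The anaphase-promoting complex then marks cyclins and other proteins for degradation, and the contractile ring divides the cell. Transcripts of these genes are made mainly in the late phases of the cell cycle, under the MuvB complex with B-MYB and FOXM1, and stay low in cells that have left the cycle. In bone, mesenchymal progenitors divide, whereas osteocytes and mature osteoblasts do not divide or rarely do.

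The promoters of late cell-cycle genes are known for the cell-cycle genes homology region (CHR) and for repeated CCAAT boxes, so the windows of the members were searched for them. RefSeq windows (GRCm38.p6) of 300 bases, from 250 before to 50 after the annotated start, were at hand for 33 of the 38 members, in 36 windows. A CHR sequence, TTTGAA or TTCGAA on either strand, was in the windows of 26 of the 33 members (78.8%), against 20.2% of 17492 protein-coding genes. At least 2 CCAAT boxes on either strand were in those of 15 members (45.5%) against 14.6%, and both features in those of 14 (42.4%) against 2.82%. A CCAAT may share bases with one on the other strand, and the median GC content was 58.8% for the members and 56.3% for protein-coding genes. The 5 members with both features and the highest mean level over the gates are given from 5′ to 3′ with the matches in capitals, as the 250 bases before the start and the first 10 bases from it. These are *Ube2c*, the ubiquitin-conjugating enzyme of the anaphase-promoting complex; *Top2a*, which untangles DNA before separation; *Mki67*, which coats mitotic chromosomes; *Cdk1*, the mitotic kinase; and *Cenpf*, a kinetochore protein.
*Ube2c*, chr2:164769679-164769938, plus strand: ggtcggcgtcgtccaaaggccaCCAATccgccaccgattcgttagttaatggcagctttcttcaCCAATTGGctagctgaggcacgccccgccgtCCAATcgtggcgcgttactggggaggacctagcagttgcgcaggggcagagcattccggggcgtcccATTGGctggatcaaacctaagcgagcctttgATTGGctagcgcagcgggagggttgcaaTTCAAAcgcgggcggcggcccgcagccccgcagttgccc
*Top2a*, chr11:99024180-99024439, minus strand: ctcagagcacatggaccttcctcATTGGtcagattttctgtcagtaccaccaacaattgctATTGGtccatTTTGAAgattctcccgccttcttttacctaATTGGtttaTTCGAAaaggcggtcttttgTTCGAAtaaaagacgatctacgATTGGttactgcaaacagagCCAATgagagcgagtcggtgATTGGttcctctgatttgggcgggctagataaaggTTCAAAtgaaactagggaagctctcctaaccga
*Mki67*, chr7:135716370-135716629, minus strand: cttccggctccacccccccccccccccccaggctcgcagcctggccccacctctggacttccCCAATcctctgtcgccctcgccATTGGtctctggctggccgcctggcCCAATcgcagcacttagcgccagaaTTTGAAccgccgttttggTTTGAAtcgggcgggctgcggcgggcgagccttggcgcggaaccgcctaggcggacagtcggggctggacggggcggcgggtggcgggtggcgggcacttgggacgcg
*Cdk1*, chr10:69352903-69353162, minus strand: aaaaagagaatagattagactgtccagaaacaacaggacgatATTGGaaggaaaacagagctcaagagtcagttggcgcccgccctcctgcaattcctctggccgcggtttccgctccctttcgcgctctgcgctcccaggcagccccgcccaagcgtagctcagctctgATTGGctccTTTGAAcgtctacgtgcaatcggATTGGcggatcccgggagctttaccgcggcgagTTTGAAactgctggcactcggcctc
*Cenpf*, chr1:189688077-189688336, minus strand: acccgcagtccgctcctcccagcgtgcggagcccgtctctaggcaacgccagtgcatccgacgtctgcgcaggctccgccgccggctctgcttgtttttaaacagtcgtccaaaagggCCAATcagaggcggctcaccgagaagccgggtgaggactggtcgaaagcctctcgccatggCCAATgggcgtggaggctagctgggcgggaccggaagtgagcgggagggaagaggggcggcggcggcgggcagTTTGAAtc

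The window of *Ube2c* held 6 CCAAT boxes, a pair of which overlapped on opposite strands, and 1 TTTGAA. That of *Top2a* held 6 CCAAT boxes, 2 TTTGAA and 2 TTCGAA, those of *Mki67* and *Cdk1* each 3 CCAAT boxes and 2 TTTGAA, and that of *Cenpf* 2 CCAAT boxes and 1 TTTGAA. None of these letters was in the windows of *Birc5*, *Tacc3*, *Nusap1* and *Nuf2*. A match is a run of letters in the window and was not tested as a site.

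No member was detected in 31.0% of progenitor, 45.9% of osteogenic, 51.9% of MALP-like and 53.6% of leukocyte cells, and cells with several members were few. At least 4 members were detected in 9136 of 83906 cells (10.9%), and at least 10 in 4500 cells. In the progenitor gate, 3552 cells (22.3%) had at least 4 members and 1888 of them at least 10. These were 630 of 1713 cells in the osteogenic gate, 318 of 747 in the MALP-like gate and 1160 of 1810 in the leukocyte gate. The progenitor gate thus held 38.9% of all cells with at least 4 members and 42.0% of those with at least 10, but 19.0% of all cells.

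**Figure D1:**
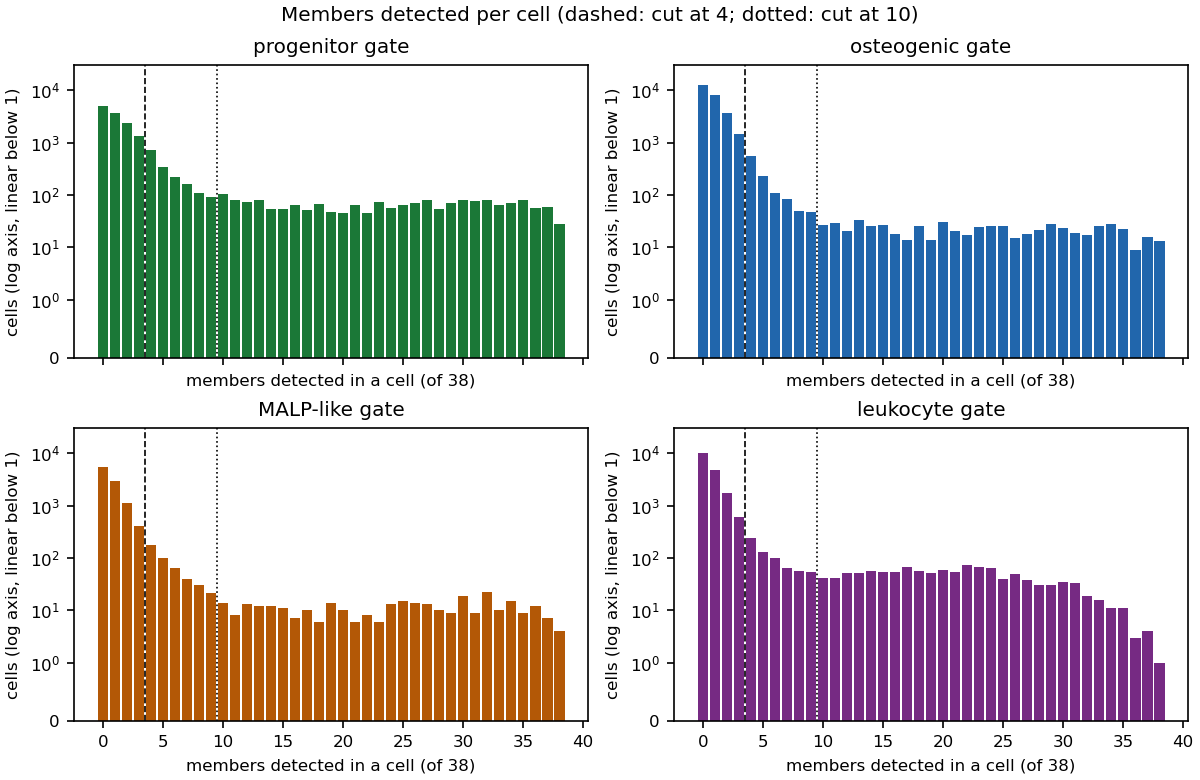
Cells (vertical log axis, linear below 1) by the number of the 38 members detected in a cell (horizontal axis), one panel per gate; the dashed line marks the limit of 4 members and the dotted line that of 10. Most cells had 0 to 3 members, and a tail reached 38 members in each gate.

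Cells with at least 10 members carried 87.7% of all member UMIs of the progenitor gate, 65.7% in the osteogenic gate, 76.8% in the MALP-like gate and 80.5% in the leukocyte gate. Within such cells, which had to have at least 10, the median number of members detected was 24, 23, 25 and 20 in the 4 gates in this order, and the summed level was 40.7, 37.6, 61.9 and 54.6 member UMIs per 10000 UMIs. In cells with fewer than 4 members, it was 0.762, 0.535, 0.801 and 1.36 per 10000. Cells with at least 10 members were also deeper, with a median of 23123.5 UMIs against 14043 for cells with fewer than 4 in the progenitor gate and 9231.5 against 3862 in the leukocyte gate. The part of depth in these counts was examined by thinning each cell to 4000 UMIs.

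Among cells with at least 10 of the other members, over all gates, the members seen most often were *Birc5* (survivin, of the chromosomal passenger complex; 93.7% of cells), *Ube2c* (86.0%), *Mki67* (84.1%), *Top2a* (83.3%) and *Cdk1* (82.7%). Those seen least often were *Kif2c*, a kinesin that removes tubulin from microtubule ends (34.5%), and *Iqgap3*, a scaffold protein at the cortex (34.6%). By level in the progenitor gate, the members ran from 0.768 UMIs per 10000 for *Ube2c*, 0.609 for *Birc5*, 0.528 for *Cdk1* and 0.513 for *Top2a* down to 0.0420 for *Iqgap3*. *Mki67* was at 0.298 there, below *Prc1* (0.353) and *Cenpf* (0.303). Counts of the 3′ kit do not scale with transcript length, but capture can differ between transcripts, so this is an order of UMIs per 10000.

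In every pool, the share of cells with at least 4 members was higher in the progenitor gate than in the osteogenic gate. In the progenitor gate, the share was 13.5% in the lowest pool (pool 18), 20.6% in the median and 47.6% in the highest (pool 2). In the osteogenic gate, it was 2.70% in the lowest pool (pool 4), 5.74% in the median and 21.9% in the highest (again pool 2). The means were 21.8% ± 8.23 and 6.79% ± 4.70 (SD, n = 16 pools), and within a pool the progenitor gate was higher by 15.1 ± 4.32 percentage points (SD, n = 16 pools). The ranges over pools overlapped because pool 2 had high shares in both gates. Without pool 2 the means were 20.1% and 5.78%.

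The summed level of the members gave the same order in all 16 pools. It was 7.54 ± 3.18 UMIs per 10000 (SD, n = 16 pools) in the progenitor gate, from 4.36 (pool 18) to 18.1 (pool 2), and 2.01 ± 1.81 in the osteogenic gate, from 0.809 (pool 11) to 7.62 (pool 2). Depth was alike over both gates (medians of 15753 and 16008 UMIs) but not within every pool, as progenitor cells were shallower in pool 1 (2742 against 14794) and pool 18 (6537 against 14032). Thinned to 4000 UMIs, the shares were 13.7% ± 7.83 and 3.20% ± 3.68, again higher in the progenitor gate in 16 of 16 pools. Before thinning, pools 1 and 2 stood apart, with 31.7% and 47.6% in the progenitor gate and 13.3% and 21.9% in the osteogenic gate.

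**Figure D2:**
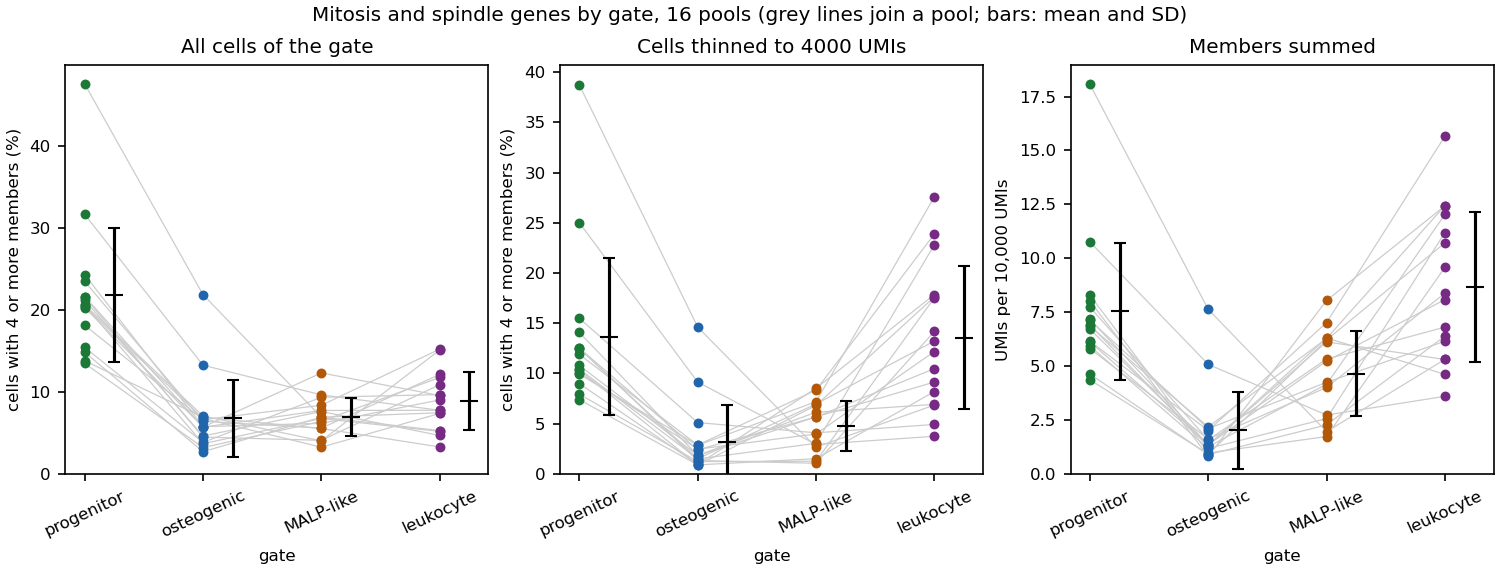
Percent of cells with at least 4 members detected, before and after thinning to 4000 UMIs, and summed member level (UMIs per 10000), by gate. Grey lines join the values of a pool, and points with bars are the mean and SD over 16 pools; the progenitor value lies above the osteogenic value in 16 of 16 pools in each measure.

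The MALP-like gate had a share of 6.91% ± 2.31 (SD, n = 16 pools), from 3.25% (pool 7) to 12.3% (pool 17) with a median of 6.83%, and was below the progenitor gate in 16 of 16 pools. Its level of 4.64 ± 1.97 UMIs per 10000 was below the progenitor gate in 12 of 16 pools. Against the osteogenic gate, the MALP-like share was higher in 9 of 16 pools, the thinned share (4.73% ± 2.50) in 12 and the level in 14, so the shares before thinning did not separate these gates, whose depths differ.

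The place of the leukocyte gate turned with the measure. Its share was 8.88% ± 3.52 (SD, n = 16 pools), from 3.28% (pool 13) to 15.2% (pool 12) with a median of 8.39%, and lay below the progenitor gate in 16 of 16 pools. After thinning to 4000 UMIs, which left out 9265 of 19266 leukocytes as too shallow against 3738 of 15921 progenitor cells, the leukocyte share was 13.6% ± 7.12 (16.7% in the same cells before thinning), and the progenitor gate was higher in 6 of 16 pools. Thinned to 2000 UMIs, which kept more of the leukocytes, the share was 7.75% ± 3.67 against 10.4% ± 6.31 in the progenitor gate, which was then higher in 10 of 16 pools. The level was 8.67 ± 3.47 UMIs per 10000, and the difference of progenitor minus leukocyte gate, -1.13 ± 5.47 per 10000 (SD, n = 16 pools), was smaller than its spread. The leukocyte gate was above the osteogenic gate in 13 of 16 pools by the share before thinning and by that at 4000 UMIs, and in 14 by the share at 2000 UMIs and by level. Without the upper limit on detected genes, 66.3% of the 1151 droplets above 6200 genes in the progenitor gate had at least 4 members, and the limit therefore removes cells with members mostly from that gate, since 17 such droplets fell in the leukocyte gate.

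Background from free RNA was read from cells that should not divide. Of 345 leukocytes with both *S100a8* and *S100a9* and at least 3 of *Retnlg*, *Cxcr2*, *Csf3r* and *Mmp8*, markers of mature granulocytes, 13.9% had at least 4 members (95% exact binomial interval 10.4 to 18.0%, which covers counting error only), at a median of 3225 UMIs. With 15.3 member UMIs per 10000, above the mean of every gate, these cells did not serve as a type that lacks the genes. After precursor transcripts were seen, 25 of these cells without transcripts of granulocyte precursors or of the granule genes *Ngp*, *Camp* and *Ltf* were chosen. None of the 25 had 4 members, with an exact upper limit of 13.7% at a median of 1065 UMIs. This limit was above the mean shares of the osteogenic, MALP-like and leukocyte gates (6.79%, 6.91% and 8.88%). It was below that of the progenitor gate (21.8%), but the 25 cells were far shallower, so they set no background share for any gate. In the 5th of 5 bins along the osteogenic score, described next, the share after thinning to 4000 UMIs was 0.571% ± 1.05, with a median of 0.315% and a highest value of 4.05% in pool 2, without which the mean was 0.339%.

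To follow the members along the marker scores, the cells of the progenitor and osteogenic gates of each pool were ordered by the osteogenic score minus the progenitor score and cut into 5 bins of equal size. The 10518 cells in no gate were left out. In 10089 of these the leading score of any gate was less than 0.3 above the next, so cells between the gates are missing here. The score is a range and not a set of types. The thinned share of cells with at least 4 members was 12.0% ± 5.89 in bin 1, the most progenitor-like, 13.7% ± 9.34 in bin 2, 8.95% ± 12.6 in bin 3, 3.31% ± 5.08 in bin 4 and 0.571% ± 1.05 in bin 5 (SD, n = 16 pools). Bin 5 was the lowest in 16 of 16 pools. The highest was bin 1 in 7 pools, bin 2 in 6 and bin 3 in 3, so bins 1 and 2 were not separated. The level of *Tpx2* followed, with 0.259, 0.272, 0.157, 0.0605 and 0.0218 UMIs per 10000 from bin 1 to bin 5. Depth did not have this order, with mean pool medians of 17490, 12606, 13462, 16602 and 19669 UMIs. The progenitor gate held 99.6%, 67.0% and 20.9% of the cells in bins 1 to 3, and in bin 3 pools 1 and 2 had thinned shares of 35.4% and 44.1%, with 60.6% and 66.6% of its cells from the progenitor gate. Pools 10 and 18 had shares of 10.8% and 12.5% there, with 75.6% and 100% of the cells from that gate.

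**Figure D3:**
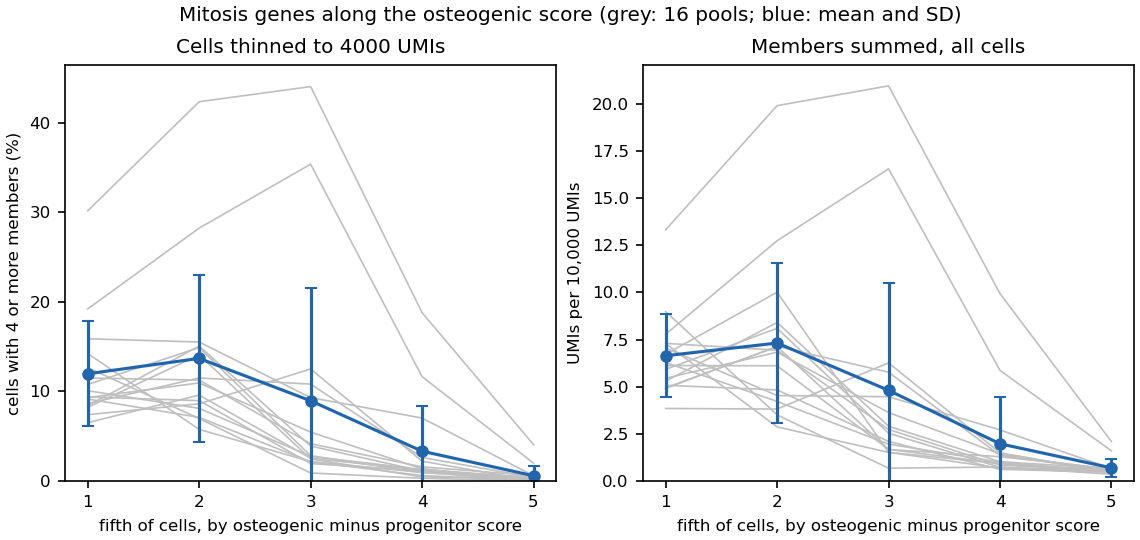
Thinned share of cells with at least 4 members (percent) and summed member level (UMIs per 10000) in 5 equal bins of the progenitor and osteogenic cells of a pool, ordered by osteogenic minus progenitor score. Grey lines are the 16 pools and blue points with bars the mean and SD; bin 5 is the lowest in 16 of 16 pools.

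UMI counts were then summed per pool and gate, and each gate was tested against the progenitor gate across all genes by the quasi-likelihood test of edgeR, in which each pool was a block. The values printed for these tests are CPM (UMIs of a gene scaled to a common library size) on the scale of each fit, which is why the progenitor values differ between comparisons. Gates are defined by expression, and most genes differ between them: of 12913 genes tested between the osteogenic and progenitor gates, 80.3% were called at an adjusted p of at most 0.05 in either direction, 40.3% as higher and 40.0% as lower in the osteogenic gate. In sums over many cells, fewer dividing cells and less RNA per dividing cell cannot be told apart.

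All 38 members were lower in the osteogenic gate, each in 16 of 16 pools, with a median log2 fold change of -1.84 against 0.01 for all genes tested. The smallest difference was that of *Ect2*, which activates RhoA for the contractile ring (-0.70), and the largest that of *Sgo2a*, a shugoshin that protects cohesion at centromeres (-2.34). All 13 kinesins and spindle proteins, 8 kinetochore, centromere and checkpoint genes, 9 kinases, cyclins and passenger proteins, 4 cytokinesis genes and both genes each of proteolysis and chromatin were lower. The 11 genes of the *Tpx2* network were too, but the study chose that network on these mice, so it is not independent evidence. The other members and the lists below were also chosen with earlier results of these data known.

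In the progenitor gate, *Tpx2* was at 0.166 UMIs per 10000 in the lowest pool, 0.267 in the median and 0.605 in the highest, and in the osteogenic gate at 0.0245, 0.0447 and 0.226. The ranges overlapped only through the highest osteogenic pool, and no pool was higher in its osteogenic gate. In the edgeR fit, *Tpx2* was at 7.04 ± 5.68 CPM in the osteogenic and 25.5 ± 8.12 CPM in the progenitor gate (SD, n = 16 pools), with a log2 fold change of -2.03 (SE 0.142, adjusted p 5.07e-11).

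*Mki67* was at 8.40 ± 8.11 against 26.2 ± 9.5 CPM, with a log2 fold change of -1.89 (SE 0.166, edgeR adjusted p 1.85e-09). *Top2a* was at 18.5 ± 19.4 against 45.2 ± 23.6 CPM (-1.53, SE 0.15, edgeR adjusted p 9.67e-09). *Cdk1* was at 20.4 ± 16.7 against 46.5 ± 27.1 CPM (-1.29, SE 0.109, edgeR adjusted p 9.75e-10). The point estimate was smaller for the kinase than for the chromatin genes, and smaller still for its partner *Ccnb1*, cyclin B1, at 9.25 ± 3.95 against 18.1 ± 7.64 CPM (-0.97, SE 0.101, edgeR adjusted p 2.41e-08). In the osteogenic gate, cells with fewer than 4 other members held 57.4% of *Ccnb1* UMIs and 42.3% of *Cdk1* UMIs. The same share was 32.7% for *Top2a* and 20.6% for *Mki67*, and its part in this order was not tested. After *Sgo2a* (edgeR adjusted p 3.25e-10), the largest differences were those of *Ccna2*, cyclin A2 (-2.30, edgeR adjusted p 3.89e-10), *Cdc20*, which activates the anaphase-promoting complex (-2.21, adjusted p 4.55e-12), and *Anln*, anillin of the contractile ring (-2.11, adjusted p 4.36e-10).

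With cells of at least 4 members left out of both gates, a selection on the members themselves that leaves few UMIs, 27 members could still be tested, of which 13 were lower in the osteogenic gate, 5 higher and 9 not called by edgeR, with a median log2 fold change of -0.16. With all cells kept, 40.0% of all genes were called lower and 40.3% higher. The shares of all genes in this refit are not given, so the 13 and 5 are not read as a result about the members. Among the 5, *Ccnb1* was at a log2 fold change of 1.14 and *Top2a* at 0.40. With the limits of 400 and 6200 applied to UMI counts, as one reading of the study's methods has it, only 5 members had enough counts to be tested, and all 5 were lower.

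**Figure D4:**
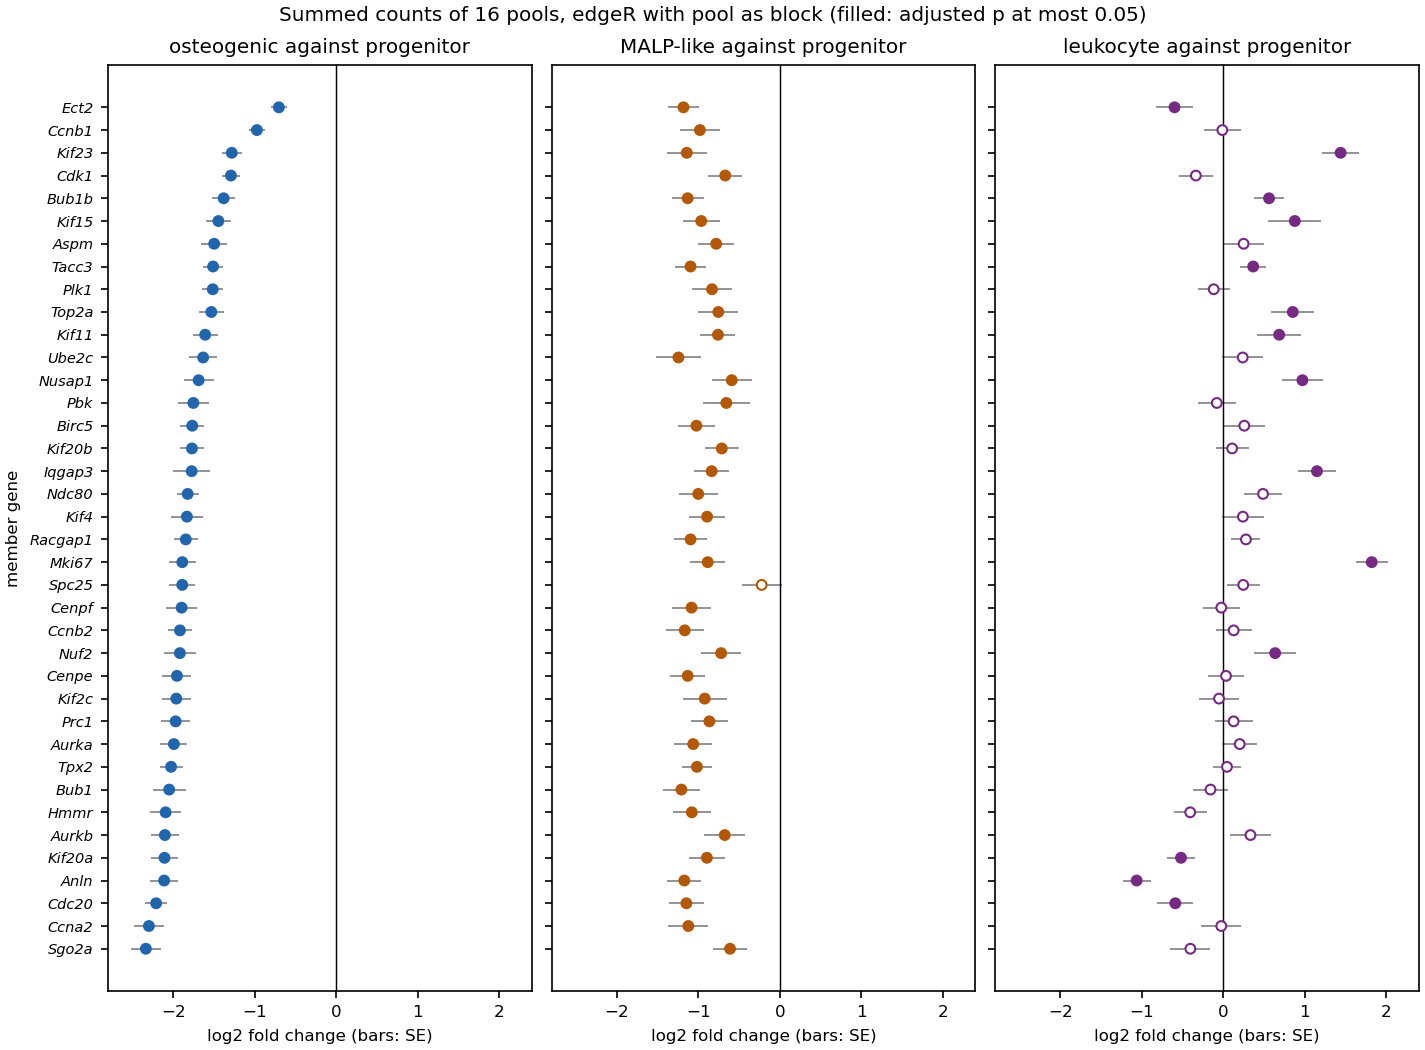
Log2 fold change of each member against the progenitor gate (horizontal axis, bars are SE) in the osteogenic, MALP-like and leukocyte gates, from summed counts of 16 pools in edgeR; filled points have an adjusted p of at most 0.05. All 38 members lie left of 0 in the osteogenic panel, between -2.34 and -0.70, whereas the leukocyte panel spans -1.06 to 1.82.

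Related genes from lists set by function were counted in the same fits. Of 56 other mitosis genes tested between the osteogenic and progenitor gates, 54 were lower and 2 not called in edgeR, with a median log2 fold change of -1.50. Of 24 DNA replication genes 23 were lower and 1 was higher, with a median of -1.39. Of 17 regulators of the program, 10 were lower, 4 higher and 3 not called. *Foxm1*, the forkhead factor of mitotic genes, was at 1.95 ± 1.90 against 6.10 ± 3.15 CPM (-1.81, SE 0.123, edgeR adjusted p 3.38e-11), and *Mybl2*, which encodes B-MYB, had a log2 fold change of -1.36 (edgeR adjusted p 4.83e-09). The repressors *E2f7* (-1.71) and *E2f8* (-1.40) were also lower, whereas *Nfyc*, a subunit of the CCAAT-binding factor NF-Y (0.44, edgeR adjusted p 5.64e-10), and *Lin54*, the CHR-binding subunit of MuvB (0.39, adjusted p 5.59e-07), were higher. Of 6 arrest genes, *Cdkn1a*, the inhibitor p21, was higher at 842 ± 130 against 460.2 ± 97.1 CPM (0.89, edgeR adjusted p 2.87e-12), and so was *Cdkn1c*, p57 (1.33). *Cdkn2a*, *Cdkn2b* and *Cdkn2c*, inhibitors of the INK4 family, were lower (-0.69, -1.61 and -0.42), and *Cdkn1b*, p27, was not called (0.16, adjusted p 0.0699).

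Between the MALP-like and progenitor gates, 12261 genes were tested and 73.8% were called, 36.7% as lower in the MALP-like gate. Here 37 of 38 members were lower, with a median log2 fold change of -0.97. The exception was *Spc25*, a subunit of the NDC80 kinetochore complex, at 12.9 ± 6.01 against 15.8 ± 11.2 CPM (-0.22, SE 0.244, edgeR adjusted p 0.421) and higher in 9 of 16 pools. The other subunits, the members *Ndc80* (-1.0) and *Nuf2* (-0.72) and, outside the members, *Spc24* (-1.58, edgeR adjusted p 2.75e-07), were called lower, but the difference between *Spc25* and these genes was not tested.

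*Tpx2* was at 15.6 ± 5.66 against 31.8 ± 10.2 CPM (-1.02, SE 0.186, edgeR adjusted p 5.46e-05) and lower in 16 of 16 pools. *Mki67* (-0.88, SE 0.215, adjusted p 0.00102), *Top2a* (-0.75, SE 0.245, adjusted p 0.00920), *Cdk1* (-0.67, SE 0.210, adjusted p 0.00727) and *Ccnb1* (-0.98, SE 0.244, adjusted p 0.00125) were higher in the MALP-like gate in 2, 4, 3 and 3 pools. The largest differences were those of *Ube2c* (-1.24, SE 0.272, edgeR adjusted p 0.00037), *Bub1*, a checkpoint kinase (-1.21, adjusted p 9.51e-05), *Ect2* (-1.18, adjusted p 8.77e-06) and *Anln* (-1.17, adjusted p 3.75e-05). Both comparisons share the progenitor sums, and the difference between the MALP-like and osteogenic gates was not tested gene by gene. Without the cells with at least 4 members, 17 members could be tested, of which 8 were lower and 2 higher, and *Anln* was at 0.68. With all cells kept, 36.7% of all genes were called lower and 37.1% higher, and the shares in this refit are not given. With the limits applied to UMI counts, 2 members could be tested and both were lower. Of the other lists, 46 of 56 mitosis genes and 16 of 24 replication genes were lower, and *Cdkn2c*, p18, was higher at 52.1 ± 11.6 against 18.3 ± 4.15 CPM (1.51, edgeR adjusted p 2.29e-11), the reverse of its sign in the osteogenic gate.

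Between the leukocyte and progenitor gates, 12387 genes were tested and 84.5% were called, 42.7% higher and 41.8% lower in the leukocyte gate. Of the members, 10 were higher, 4 lower and 24 not called, and their median log2 fold change was 0.17. *Mki67* stood out. It was at 0.152 UMIs per 10000 in the lowest, 0.289 in the median and 0.653 in the highest progenitor pool, and at 0.405, 0.930 and 1.86 in the leukocyte gate. The leukocyte gate was higher in 16 of 16 pools, although the ranges overlapped. In the fit it was at 103 ± 40.5 against 28.8 ± 10.5 CPM (1.82, SE 0.194, edgeR adjusted p 2.50e-08), and it was called in 16 of 16 fits that left out 1 pool and under 9 of 9 other settings.

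Of the other 9 members with a higher level in leukocytes, 5 were among the 13 kinesins and spindle proteins, a group of which 1 was lower and 7 were not called, beside 42.7% of all genes called higher. *Kif23*, the motor of the central spindle, was at 25.3 ± 11.5 against 9.07 ± 3.33 CPM (1.44, SE 0.226, edgeR adjusted p 6.10e-06, higher in 14 of 16 pools). *Iqgap3* (1.15, adjusted p 1.05e-04), *Nusap1*, which bundles spindle microtubules (0.97, adjusted p 0.00124), *Kif15* (0.88, adjusted p 0.0176) and *Kif11* (0.69, adjusted p 0.0239), both motors of the spindle, and *Tacc3* (0.37, adjusted p 0.0384), which stabilizes kinetochore fibers, were also higher. So were *Top2a*, at 91.0 ± 45.8 against 49.7 ± 26.1 CPM (0.85, SE 0.265, edgeR adjusted p 0.00556), and the kinetochore and checkpoint genes *Nuf2* (0.64, adjusted p 0.0268) and *Bub1b* (0.56, adjusted p 0.00801). Of these, *Kif11*, *Nuf2* and *Tacc3* were called in only 10, 11 and 7 of the 16 fits that left out 1 pool.

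Of the 4 members that were lower, *Anln* was at 10.7 ± 3.47 against 22.9 ± 8.77 CPM (-1.06, SE 0.170, edgeR adjusted p 8.02e-06) and higher in leukocytes in 1 of 16 pools. *Ect2* (-0.60, adjusted p 0.0197), *Cdc20* (-0.59, adjusted p 0.0188) and *Kif20a*, a motor of the cleavage furrow (-0.52, adjusted p 0.00967), were called as well. By role, the lower genes were 2 of 4 cytokinesis genes, 1 of 13 kinesins and spindle proteins and 1 of 2 proteolysis genes, and these counts were not tested against each other. Of the 9 kinases, cyclins and passenger proteins, 0 were called by edgeR and 0 had an unadjusted p under 0.05, while DESeq2 called *Cdk1* lower (-0.44, adjusted p 0.0415). The median log2 fold change of these 9 was -0.01. *Tpx2* (0.05, SE 0.169, edgeR adjusted p 0.805), *Cdk1* (-0.34, SE 0.206, adjusted p 0.135) and *Ccnb1* (-0.01, SE 0.229, adjusted p 0.968) did not pass the threshold, but *Cdk1* was called under 5 of 9 other settings.

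Of the 17 regulators, 11 were higher in leukocytes and 6 not called by edgeR, among the higher ones *E2f2* (11.5 against 0.884 CPM, adjusted p 4.75e-10) and *Nfya*, a subunit of NF-Y (log2 fold change 2.09, adjusted p 2.83e-14). The other lists went both ways in this comparison. Of 56 other mitosis genes, 14 were higher, 10 lower and 32 not called, of 24 replication genes 11 were higher, 4 lower and 9 not called, and of 6 arrest genes 1 was higher, 2 were lower and 3 not called.

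The counts of members depended on which cells were kept. With no upper limit on detected genes, 4 members were higher and 10 lower, and with the limits applied to UMI counts 1 of 18 tested members was higher and 15 were lower. *Mki67* remained higher in both. In the main fit, 42.7% of all genes were called higher and 41.8% lower, and the shares under these settings are not given. Under the UMI limits *Tpx2* was at -1.29, *Nusap1* at -0.81 and *Top2a* at -0.76 on the log2 scale.

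Each member was also read in cells with at least 10 of the other 37, where the number of members and their summed level still differed between the gates (medians of 20 and 24, and 54.6 and 40.7 per 10000, in leukocytes and progenitor cells with at least 10 members). In such cells *Mki67* was at 4.95 UMIs per 10000 in leukocytes and 1.69 in progenitor cells, *Kif23* at 1.36 and 0.482, *Nusap1* at 2.22 and 0.916, *Top2a* at 6.24 and 2.89, and *Iqgap3* at 0.481 and 0.240, although *Iqgap3* was detected in 33.9% of these leukocytes and 35.3% of the progenitor cells. *Anln* was at 0.571 and 1.25, and was detected in 34.5% of the leukocytes against 77.0% of the progenitor cells. *Ect2* was at 0.337 and 0.472 UMIs per 10000, *Kif20a* at 0.377 and 0.506, and *Cdc20* at 0.965 and 1.33. Their shares of cells with a UMI lay further apart, at 27.3% and 54.4% for *Ect2*, 27.4% and 54.1% for *Kif20a*, and 47.1% and 69.2% for *Cdc20*, and the leukocytes are shallower. These values are over all cells of a gate and were not tested.

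**Figure D5:**
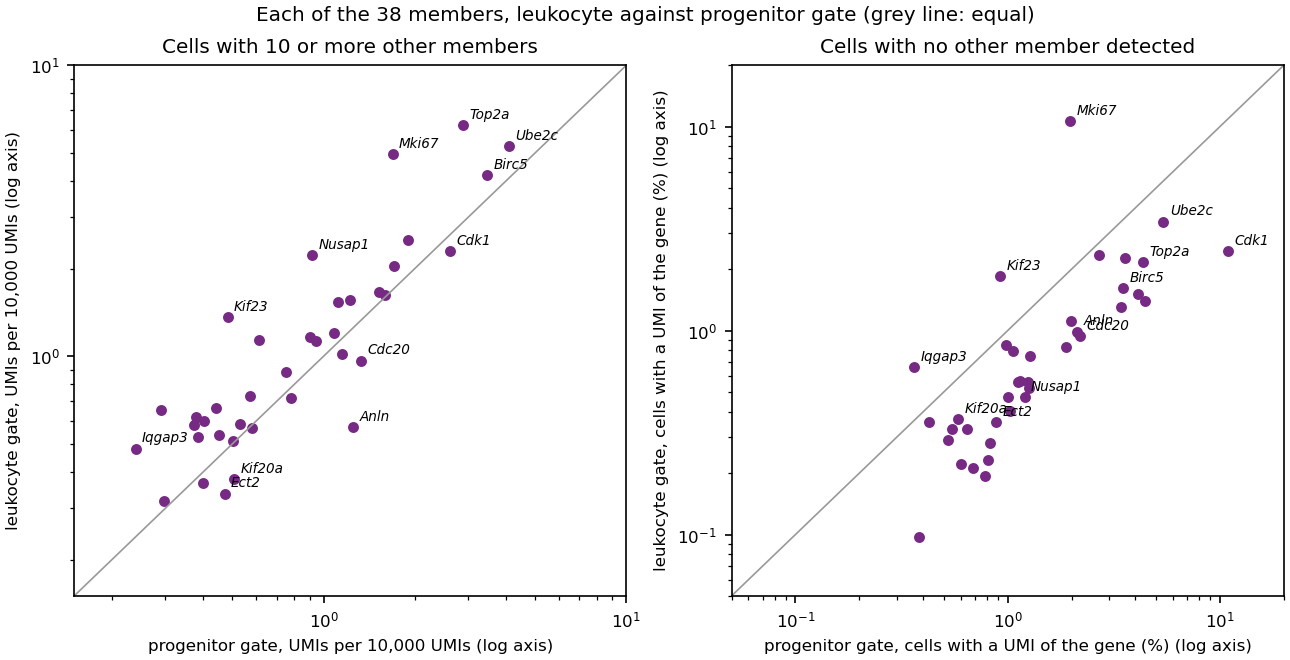
Each point is a member in the leukocyte gate (vertical) against the progenitor gate (horizontal), on log axes, and the grey line marks equal values. The left panel gives its level (UMIs per 10000) in cells with at least 10 of the other members. The right panel gives the percent of cells with a UMI of the gene, among cells with none of the other members. *Mki67* lies above the line in both panels, and *Anln* lies below it among cells with at least 10 others.

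*Mki67* was also found without other members, a pattern chosen after its values were seen and given as a description. Of leukocytes with none of the other 37 members, 10.6% of 11558 had a UMI of *Mki67*, at a median of 3293 UMIs per cell. The share was 1.97% of 5033 such progenitor cells, 1.51% of 12777 osteogenic cells and 1.06% of 5642 MALP-like cells, all of which were deeper. Over pools it was 10.1% ± 3.70 in leukocytes, from 2.75 to 16.5%, and 1.95% ± 0.688 in progenitor cells (SD, n = 16 pools), and leukocytes were higher in 16 of 16 pools against each other gate. The level there was 0.347 against 0.0219 UMIs per 10000. A single UMI of *Mki67* was seen in 959 of these leukocytes, 2 UMIs in 189, 3 in 56, and the highest count was 9. The share was 14.2% among 7114 cells with at least 3 macrophage markers, 13.9% among 786 with osteoclast markers and 4.05% among 963 with granulocyte markers. *Kif23* alone was seen in 1.84% of leukocytes and 0.924% of progenitor cells with none of the others (0.0518 and 0.00994 UMIs per 10000), and *Iqgap3* alone in 0.664% and 0.363% (0.0177 and 0.00369 UMIs per 10000). *Cdk1* alone was seen in 2.45% and 11.0%, and *Anln* alone in 0.987% and 2.12%, although its level was 0.0264 in leukocytes and 0.0224 UMIs per 10000 in progenitor cells.

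The leukocyte gate was a mix, and its types differed in the share of cells with at least 4 members. Among cells with at least 3 markers of a type, the share was 60.1% of 426 granulocyte precursors (markers such as *Mpo* and *Elane*), 37.2% of 392 cells with T-cell markers, 29.1% of 1994 with granulocyte markers, 9.95% of 1669 with osteoclast markers, 7.91% of 215 with B-cell markers and 7.62% of 11901 with macrophage markers. These shares are over the cells of all pools, and a cell can carry markers of several types. Depth differed as well, with medians of 11607 UMIs for cells with B-cell markers, 8311.5 for granulocyte precursors, 7997 for cells with osteoclast markers, 4745 for those with macrophage markers, 4395.5 for those with T-cell markers and 4374 for those with granulocyte markers. Its part in these shares was not tested. Cells with B-cell markers could be read in 4 pools, with a mean over pools of 3.83% ± 4.45, below that of macrophage-marker cells. Macrophage-marker cells were present in 16 pools at 7.32% ± 1.88 (SD), from 4.20 to 11.1%, whereas precursors could be read in 8 pools (56.4% ± 9.03). T-cell markers could be read in 4 pools (24.4 to 51.7%) and granulocyte markers in 11 (20.9 to 64.0%). Cells with osteoclast markers could be read in 14 pools, from 1.56 to 32.4%. Among leukocytes with at least 10 members, 43.6% had macrophage markers, 39.1% granulocyte markers and 15.4% precursor markers, and among those with fewer than 4 members 63.0%, 8.10% and 0.974%. Erythroid markers marked 0 cells of either kind.

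Cells with at least 4 members were next set against the other cells of the same gate and pool. The members chose the cells, so other genes are described without a test. In the progenitor gate, all 56 other mitosis genes were higher on average in the chosen cells, with a median of 2.70 on the log2 scale against -0.05 for all genes of at least 5 CPM. *Cenpa*, the histone of centromeres, was at 127 CPM in the chosen and 4.56 CPM in the other cells, and *Cdca8*, of the passenger complex, at 78.8 and 4.61 CPM. All 24 replication genes were higher as well, with a median of 2.13, for example the ribonucleotide reductase subunit *Rrm2* at 112 and 13.6 CPM and the helicase subunit *Mcm5* at 37.8 and 4.07 CPM. *Foxm1* differed by 3.16 ± 0.295, *Mybl2* by 2.46 ± 0.465, *E2f7* by 2.26 ± 0.524 and *E2f8* by 2.19 ± 0.674 on the log2 scale (SD, n = 16 pools), each higher in 16 of 16 pools. Of the inhibitors, *Cdkn2a* differed by -0.78 ± 0.235 and *Cdkn2b* by -0.60 ± 0.322, both lower in 16 of 16 pools, and *Cdkn2c* by 1.07 ± 0.360, higher in 16 of 16.

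In the osteogenic gate, the same lists had medians of 2.29 for other mitosis genes and 1.60 for replication genes, with *Foxm1* at 2.44 ± 0.747. Of the 16 osteogenic markers, 13 were lower on average in the chosen cells of this gate, with a median difference of -0.34 on the log2 scale. The markers were also mostly lower in the chosen cells of the other gates, 14 of 16 in the progenitor gate (median -0.20), 14 of 16 in the MALP-like gate (-0.29, over 13 pools) and 15 of 16 in the leukocyte gate (-0.52, over 15 pools). In the osteogenic gate, *Phex*, an endopeptidase of osteocytes, was at 137 against 277 CPM, *Car12*, a carbonic anhydrase, at 216 against 387 CPM, and *Bglap*, osteocalcin, at 6415 against 10310 CPM, each lower in 16 of 16 pools. *Alpl*, alkaline phosphatase, was at 1496 against 1484 CPM and *Sp7*, osterix, at 148 against 141 CPM, higher in 10 of 16 pools each, and *Smpd3*, a sphingomyelinase needed for bone mineralization, at 488 against 429 CPM, higher in 14 of 16 pools. The chosen cells also had more of 11 of the 12 progenitor markers, with a median of 0.62, such as the smooth muscle actin gene *Acta2* at 121 against 60.8 CPM.

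In the progenitor gate, 10 of the 12 progenitor markers were lower in the chosen cells, with a median of -0.39, led by *Aspn*, asporin, at 260 against 541 CPM and *Thbs2*, a matricellular thrombospondin, at 289 against 465 CPM, each lower in 16 of 16 pools. *Thbs2* was also lower on average in the osteogenic gate (89.0 against 100.6 CPM). *Acta2* was at 2426 against 2112 CPM and higher in 14 pools. The gates are cut from these markers, which limits how far they can vary within a gate.

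Over the 64 sums of 4 gates in 16 pools, 34 members with at least 5 CPM followed the summed members with a median Pearson's r of 0.913, from 0.701 for *Ect2* to 0.976 for *Prc1*, which crosslinks antiparallel microtubules. *Tpx2* had 0.970, and the lowest after *Ect2* were *Anln* (0.795) and *Kif23* (0.805). A member is part of the sum it was compared with, and the sums share pools, gates and depth, so these values are descriptions. The median over all 10118 genes was 0.236. The genes outside the members most like their sum were *Cdca8* (0.973), *Ckap2l* (0.960), *Cdca3* (0.943), *Smc2* (0.940) and *Dlgap5* (0.936), and 19 of the 50 most alike were among the other mitosis genes.

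Droplets called doublets had more members than the cells kept, but they were also deeper. Their median depth was 21283.5, 21584, 14855 and 14355 UMIs in the progenitor, osteogenic, MALP-like and leukocyte gates. It was 15753, 16008, 7908.5 and 4150 UMIs for the cells kept, and the part of depth in the shares below was not tested. At least 4 members were detected in 34.5% of 906 called doublets in the progenitor gate against 22.3% of the cells kept, in 17.6% of 1755 in the osteogenic gate against 6.22%, in 22.4% of 747 in the MALP-like gate against 6.96% and in 31.5% of 543 in the leukocyte gate against 9.39%. With the doublets kept, the counts of members called were 38 lower in the osteogenic gate and 35 lower in the MALP-like gate.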

How the data were processed

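The deposited UMI counts (whole numbers per gene and barcode, not normalized) were made by the authors with Cell Ranger 5.0.0 against mm10 (GRCm38), before their cell filters and assignment to mice, and the annotation release is not given in the sources used here. The members and lists were chosen with earlier results of these data known. Run HGYVNCCX2 was used. A barcode was kept as a cell if it had 400 to 6200 detected genes and no more than 10% of its UMIs from mitochondrial, 20% from *Rpl* and 15% from *Rps* genes, and doublets were scored against simulated doublets (scikit-learn 1.9.0) and removed at 0.8% per 1000 barcodes. Gates took the leading mean z of a marker list. Pools with fewer than 20 cells in a gate were left out of its values. Summed counts were tested by the quasi-likelihood method of edgeR 4.0.16 under R 4.3.3 (pool as a block, low counts removed by filterByExpr, TMM scaling) at a Benjamini-Hochberg adjusted p of 0.05 over all genes tested. Standard errors were derived from each log2 fold change and its F statistic. Both gates of a pool are droplets of the same mice, which is where the pairing comes from, and their deviations from the gate means correlated at 0.206 or more in every pool and comparison. In a test on simulated counts in which 200 genes were given a log2 change of 1, 98.5% were recovered for the osteogenic gate (12913 genes), 99% for the MALP-like gate (12261 genes) and 99% for the leukocyte gate (12387 genes), and 3.43%, 2.94% and 6.16% of the calls were of unchanged genes. The simulated counts had no pool effect, the same dispersion for all genes and few changed genes, unlike the data, so these rates hold for that setting only. Named were *Tpx2*, *Top2a*, *Mki67*, *Cdk1* and *Ccnb1* and the 4 other members with the largest called change in each comparison, and all other members described were added after their values were seen. Promoter sequences are those of RefSeq (GRCm38.p6). Alternatives were DESeq2 1.42.0, no filter on low counts, run HHFFMCCX2, other cell and gate limits, other numbers of members, thinning, no block, and leaving out each pool.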

Additional observations from a re-analysis of the deposited data

Results flagged for a closer look

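In the progenitor gate, the progenitor markers were lower in cells with at least 4 members than in the other cells of the pool, with a median over pools of -0.35 on the log2 scale (from -0.50 to -0.07, lower in 16 of 16 pools). In the osteogenic gate the same markers were higher, with a median over pools of 0.51 (from 0.06 to 1.10, higher in 16 of 16 pools). Every pool thus moved one way in one gate and the opposite way in the other, and the difference between the gates was not tested.

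Droplets outside the comparisons also held members. Of the 10518 cells in no gate, 12.5% had at least 4 members, with a median depth of 2430.5 UMIs. Thinning to 4000 UMIs left out 6681 of them as too shallow. The thinned share was 13.0% ± 6.49 (SD, n = 16 pools), against 13.7% ± 7.83 in the progenitor gate. Their summed level was 7.36 ± 2.90 UMIs per 10000, against 7.54 ± 3.18 in the progenitor gate. Of the called doublets in the progenitor gate, 34.5% had at least 4 members, at a median depth of 21283.5 UMIs. Of the droplets above 6200 detected genes in that gate, 66.3% had at least 4 members, at a median depth of 50197 UMIs, so the share of cells with members in the progenitor gate is one below this limit.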

How the results depend on the processing

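With each pool left out in turn, 38 of 38 members were called in the osteogenic gate, 35 to 37 in the MALP-like gate, and 7 to 13 as higher and 4 to 5 as lower in the leukocyte gate. Without the replicate block (the pairing by pool), 38, 37, 11 and 4 members were called in these 4 counts, and the block changed no other call count by over 1.5 times.

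With the limits of 400 and 6200 applied to UMI counts, fewer members had enough counts to be tested, and the counts called were 5, 2, 1 and 15. The shares of cells with at least 4 members were then 9.75% (progenitor), 2.58% (MALP-like) and 3.25% (leukocyte), and the levels 2.56 (MALP-like) and 3.77 (leukocyte) UMIs per 10000. In these shallow cells, other mitosis genes above against below the limit of 4 had a median of 1.82 in the progenitor gate (7 pools) and 1.38 in the osteogenic gate (4 pools), and replication genes 0.90 and 0.16. The sign turned for *Tpx2* (-1.29), *Top2a* (-0.76) and *Nusap1* (-0.81) in leukocytes.

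With cells of at least 4 members left out, the counts called were 18 (osteogenic, 13 of them lower) and 10 (MALP-like, 8 of them lower). In leukocytes, 21 members could be tested, of which 13 were higher and 1 was lower. Of all 11875 genes tested there, 5008 were called higher and 5144 lower. The sign turned for *Top2a* (0.40) and *Ccnb1* (1.14) in the osteogenic gate, *Anln* (0.68) in the MALP-like gate and *Ccnb1* (0.41) and *Anln* (0.28) in the leukocyte gate. With no upper limit on detected genes, 4 members were higher and 10 lower in leukocytes, and with DESeq2 7 were lower.

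Requiring 3 members gave shares of 30.4%, 12.3% and 10.4% in the progenitor, osteogenic and MALP-like gates, 6 members 4.59% in the MALP-like gate, and 10 members, chosen after the data were seen, 11.4% (progenitor) and 3.34% (MALP-like). Thinning to 2000 UMIs gave 10.4% (progenitor), 3.92% (MALP-like) and 7.75% (leukocyte), and thinning to 4000 UMIs 13.6% (leukocyte). The cause of these changes was not tested beyond the settings themselves. A value was taken as kept if it held its direction and call or stayed within its spread. Counts of members called were judged by their size only. The leukocyte total of higher and lower calls was therefore kept although directions turned. It was 10 higher and 4 lower in the main fit, and 4 and 10 with no upper limit on detected genes. Under the limits on UMI counts it was 1 and 15. Of 271 values of the main results under all settings, 243 were kept in this sense, as were 636 of 656 of the named members. Of these, 116 and 432 left out 1 pool. Under the limits on UMI counts, 10 of 23 main results were kept in this sense, among them the leukocyte total. Depth limits the leukocyte gate most, where 9265 cells were too shallow to thin to 4000 UMIs.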
